A study of Rattus norvegicus with 84 samples.

Results

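NMDA receptors are glutamate-gated cation channels, and 6 genes that encode their subunits were followed through the 3 main subregions of the rat hippocampus at 2 ages. The genes were Grin1, Grin2a, Grin2b, Grin2c, Grin2d and Grin3a, taken by symbol from the deposited tables. All 6 were present in each table, among 15553 rows for CA1, 15706 for CA3 and 15374 for the dentate gyrus (DG), or 15999 genes over the 3 tables. RNA was sequenced from 28 male rats of the inbred strain F344, of which 12 were young (5 months) and 16 middle-aged (12 months). No further treatment, genotype or allele is given for either age. Each rat gave 1 library of CA1, 1 of CA3 and 1 of the DG, dissected from a single hemisphere, 84 libraries in all.

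A functional NMDA receptor needs the obligatory subunit GluN1, encoded by Grin1, which binds the co-agonist glycine or D-serine. It combines with GluN2 subunits, encoded by Grin2a to Grin2d, which bind glutamate and set how long the channel stays open and how strongly magnesium blocks it. In the forebrain GluN2B dominates early in life and GluN2A rises as synapses mature. In the hippocampus GluN2D is best known from interneurons, GluN2C from glia and some interneurons, and GluN3A from young synapses, where it lowers calcium entry.

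The promoters of members that fell together with age are shown first: Grin1, Grin2c and Grin2d were each called lower in CA1 and the DG. RefSeq's table of the GRCr8 assembly, which is not the rn6 build of the expression data, held a promoter for 4 of the 6 genes, Grin1, Grin2c, Grin2d and Grin3a. Each window runs from 250 bases before to 50 bases after the annotated start and lies on the minus strand. Grin1 is at chr3:28528705-28529004, Grin2c at chr10:101005089-101005388 and Grin2d at chr1:105481187-105481486. Capitals mark the only matches found to any of 4 motifs searched on both strands.
Grin1: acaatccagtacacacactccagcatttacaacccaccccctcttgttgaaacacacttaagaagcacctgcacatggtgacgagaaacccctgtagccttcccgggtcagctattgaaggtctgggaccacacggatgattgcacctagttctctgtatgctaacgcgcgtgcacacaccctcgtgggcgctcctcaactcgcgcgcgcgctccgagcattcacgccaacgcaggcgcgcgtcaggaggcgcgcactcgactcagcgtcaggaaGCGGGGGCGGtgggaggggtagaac
Grin2c: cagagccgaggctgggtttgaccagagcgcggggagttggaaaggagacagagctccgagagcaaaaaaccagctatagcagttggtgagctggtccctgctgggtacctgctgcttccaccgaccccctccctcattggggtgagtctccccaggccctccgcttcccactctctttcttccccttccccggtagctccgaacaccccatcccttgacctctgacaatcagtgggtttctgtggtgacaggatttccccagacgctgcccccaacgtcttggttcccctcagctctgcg
Grin2d: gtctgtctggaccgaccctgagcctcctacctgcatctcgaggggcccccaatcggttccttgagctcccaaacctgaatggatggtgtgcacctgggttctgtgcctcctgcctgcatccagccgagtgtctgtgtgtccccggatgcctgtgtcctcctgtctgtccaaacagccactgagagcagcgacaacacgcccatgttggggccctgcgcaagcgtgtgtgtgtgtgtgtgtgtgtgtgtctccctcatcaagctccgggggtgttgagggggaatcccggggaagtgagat
The motifs were the GC box GGGCGG, held by 33.1% of 33469 promoters of the same length, the Egr core GCGNGGGCG (4.98%), the core of the NRF1 motif (4.25%) and the cyclic AMP response element TGACGTCA (1.83%). Grin1 held 1 GC box and 1 Egr core, and these overlap, with first bases 30 and 26 bases after the start. The windows of Grin2c, Grin2d and Grin3a held none of the 4. GC content was alike, at 59.7% for Grin1, 60.3% for Grin2c, 60.7% for Grin2d and 58.7% for Grin3a.

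Recovered reads, described with the processing, ranged from 14.4 to 23.4 M per library. Summed markers of CA1 pyramidal cells were highest in the CA1 library of all 28 rats, and those of CA3 pyramidal and DG granule cells likewise in their own subregion. Of single markers, only Cdh24 had its highest median outside its own subregion. By their animal numbers the rats form 2 consecutive runs. The first holds 6 young and 10 middle-aged rats, the second 6 and 6, and in both the young rats are numbered before the middle-aged ones. The labels do not name the runs as batches, and age and number block cannot be told apart inside a run. Over both runs, mitochondrially encoded genes took 8.54 ± 2.43% of reads in young and 11.5 ± 1.81% in middle-aged CA1 (mean ± SD, n = 12 and 16). The gaps were smaller in CA3 (7.59 ± 1.56% and 9.04 ± 1.36%) and the DG (7.06 ± 2.64% and 7.96 ± 1.26%). In CA1 the second run's libraries lay from 5.22 to 7.72% in young and from 11.1 to 13.2% in middle-aged rats. In the first run young ones reached 13.6%, and the lowest middle-aged one was 8.31%. In CA3 and the DG the ages overlapped in both runs. For the DG the highest young and middle-aged values were 12.6 and 9.94% in the first run and 7.03 and 9.62% in the second. The part of these differences in the subunit changes was not tested.

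With age, Grin2c and Grin2d were lower in all 3 subregions, Grin1 was lower in CA1 and the DG, Grin2b was lower in CA1, and Grin2a was higher in the DG. Levels are given as normalized read counts, and changes as log2 differences, 12 minus 5 months, with a standard error. A change was called at an adjusted p below 0.05 in limma, with Benjamini-Hochberg adjustment over all genes of the subregion. In CA1, 4 of the 6 genes were called lower and 0 higher, where 25.2% of all 14685 genes tested were called and 12.8% were called lower. In CA3, 2 were called lower, where 21.7% of 14893 genes were called and 10.8% called lower. In the DG, 3 were called lower and 1 higher, where 37.1% of 14526 genes were called, 18.5% in each direction. The 6 genes passed the filter on low values in every subregion, and in none of the 3 did the ages of any of them fail to overlap (0.0204% of all genes for CA1, 0.047% for CA3 and 0.0275% for the DG did not overlap).

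**Figure D1:**
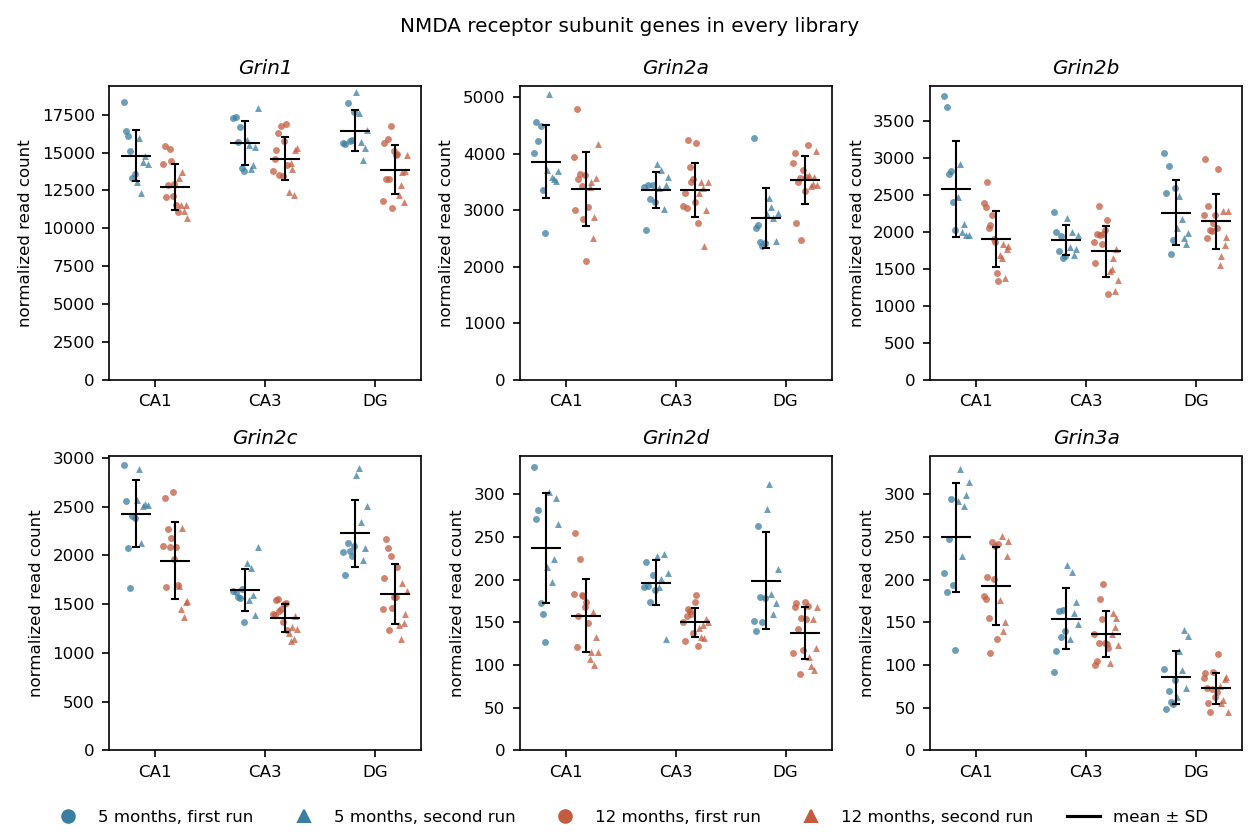
Normalized read counts of the 6 subunit genes in every library, with young rats in blue and middle-aged rats in red. Circles mark the first and triangles the second run of animal numbers, and black bars give the mean and SD. Ages overlap in every panel, and the DG means lie lowest for Grin3a.

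Grin1, the subunit that every receptor needs, had by far the most reads. In CA1 its lowest, median and highest normalized counts were 12301, 14596 and 18305 in young and 10673, 12485 and 15401 in middle-aged rats. Its level fell by 13.9% there (log2 change -0.22 ± 0.064, limma adjusted p = 0.0149), and 14 of 16 middle-aged libraries lay below the young median. In the DG the counts were 14478, 15813 and 18977 in young and 11358, 13742 and 16757 in middle-aged rats. There it fell by 15.9% (log2 change -0.25 ± 0.059, limma adjusted p = 0.00189), again with 14 of 16 libraries below the young median. In both subregions the lower part of the young range overlapped the upper part of the middle-aged range. CA3 counts ran from 13801 to 17963 in young and from 12195 to 16863 in middle-aged rats, a log2 change of -0.098 ± 0.052 that was not called (limma adjusted p = 0.181).

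Grin2a, the adult GluN2A subunit, was called in the DG alone, and there it was higher at 12 months. Its lowest, median and highest counts in the DG were 2362, 2804 and 4275 in young and 2480, 3575 and 4159 in middle-aged rats. The rise was 24.1% (log2 change 0.31 ± 0.077, limma adjusted p = 0.00277), with 14 of 16 middle-aged libraries above the young median. A single young library, replicate 1, held the 4275, and the next highest young value was 3208. Without that library the log2 change was 0.37. In CA1 the counts ran from 2595 to 5050 in young and from 2106 to 4791 in middle-aged rats (log2 change -0.20 ± 0.097, limma adjusted p = 0.125). Without young replicate 6 this change in CA1 also passed, at an adjusted p of 0.0429, and over the 38 alternatives tried the adjusted p went up to 0.43. CA3 medians were 3422 and 3352, with a log2 change of -0.0086 ± 0.066 (limma adjusted p = 0.943).

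The opposite signs in the DG and CA1 were set against each other within each rat. The change of Grin2a in the DG exceeded that in CA1 by 0.51 ± 0.13 on the log2 scale, which narrowly missed the threshold (limma adjusted p = 0.0555). With the run as a term in the fit the difference was 0.52 (adjusted p = 0.0422), and over its 5 alternatives the adjusted p ranged from 0.0422 to 0.355. Against CA3 the difference was 0.32 ± 0.11 (limma adjusted p = 0.089). None of the 6 genes was called for a difference between subregions in the size of the age effect, where 0.607% of genes were called for the DG against CA1, 2.73% for the DG against CA3 and 0% for CA1 against CA3. For CA1 against CA3, limma called 0 of 14513 genes and 1444 had an unadjusted p below 0.05.

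Grin2b, which encodes GluN2B, was called lower in CA1. Its counts there had a lowest, median and highest value of 1957, 2438 and 3841 in young and 1333, 1857 and 2679 in middle-aged rats. The level fell by 25.5% (log2 change -0.43 ± 0.11, limma adjusted p = 0.00727), and 15 of 16 middle-aged libraries lay below the young median. The highest young values came from the first run, whose young libraries averaged 2928 against 2236 in the second. In CA3 the medians were 1872 and 1801 (log2 change -0.14 ± 0.086, limma adjusted p = 0.248), with -0.0066 among rats of the first run and -0.36 among those of the second, where it passed (limma adjusted p = 0.982 and 0.0149, the extremes of 38 alternatives). In the DG they were 2121 and 2088 (log2 change -0.073 ± 0.092, limma adjusted p = 0.557). In CA3 and the DG the young and middle-aged ranges overlapped widely.

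Grin2c and Grin2d, which encode GluN2C and GluN2D, were the members called lower in every subregion. Grin2c in CA1 had counts of 1664, 2512 and 2926 in young and 1372, 2026 and 2654 in middle-aged rats (lowest, median and highest). It fell by 20.6% there (log2 change -0.33 ± 0.096, limma adjusted p = 0.013), and it fell by 17.5% in CA3 (-0.28 ± 0.061, adjusted p = 0.00232). In the DG it fell by 28.3% (-0.48 ± 0.090, limma adjusted p = 0.000401). CA3 counts were 1319, 1612 and 2086 in young and 1126, 1386 and 1556 in middle-aged rats, and all 16 middle-aged libraries lay below the young median. In the DG they were 1796, 2087 and 2895 in young and 1148, 1575 and 2166 in middle-aged rats, with 15 of 16 below. Each young range reached into the middle-aged one from above.

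Grin2d was a gene of few reads, from 100 to 351 recovered reads per library over the 3 subregions, and had the largest falls of the 6 genes in each of them. In CA1 its counts were 127, 245 and 332 in young and 99.6, 160 and 255 in middle-aged rats, and it fell by 33.0% (log2 change -0.58 ± 0.14, limma adjusted p = 0.00565). In CA3 they were 131, 197 and 230 in young and 122, 150 and 182 in middle-aged rats, and it fell by 23.4% (log2 change -0.38 ± 0.074, limma adjusted p = 0.000868). The DG had 139, 179 and 312 in young and 89.2, 148 and 174 in middle-aged rats, and it fell by 30.0% (log2 change -0.52 ± 0.13, limma adjusted p = 0.00304). In CA3 and the DG all 16 middle-aged libraries lay below the young median, and in CA1 15 did.

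Grin3a, the calcium-limiting GluN3A subunit, was not called in any single subregion over all rats. In CA1 its counts were 117, 266 and 330 in young and 114, 191 and 251 in middle-aged rats, and all 16 middle-aged libraries lay below the young median (log2 change -0.36 ± 0.14, limma adjusted p = 0.0555). With edgeR on recovered reads the adjusted p was 0.0392, and with DESeq2 0.0256. Leaving out any 1 of 8 rats also took it past the threshold, and over 38 alternatives the adjusted p ranged from 0.00788 in the second run alone to 0.717 in the first run alone. In CA3 the medians were 154 and 131 (log2 change -0.16 ± 0.11, limma adjusted p = 0.311), and in the DG 77.9 and 72.8 (-0.20 ± 0.16, adjusted p = 0.34). In the DG the log2 change was 0.15 among rats of the first run and -0.58 among those of the second, where it passed (limma adjusted p = 0.646 and 0.0318, again the extremes of 38 alternatives).

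Averaged over a rat's 3 libraries, 5 of the 6 genes were called lower at 12 months, where 50% of 14291 genes were called and 24.6% called lower. Grin2d fell by 28.9% (log2 change -0.49 ± 0.077, limma adjusted p = 1.49e-05), Grin2c fell by 22.3% (-0.36 ± 0.063, adjusted p = 4.01e-05) and Grin1 fell by 12.2% (-0.19 ± 0.041, adjusted p = 0.000438). Grin2b fell by 13.7% (log2 change -0.21 ± 0.071, limma adjusted p = 0.0132), and Grin3a fell by 15.3% (-0.24 ± 0.087, adjusted p = 0.0227). The call of Grin3a was lost without young replicate 12 (adjusted p = 0.0503), and in the first run alone its log2 change was 0.01 (0.0135, adjusted p = 0.938). The average for Grin2a, with unlike signs behind it, was 0.03 ± 0.045 (limma adjusted p = 0.543).

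More of the 6 genes passed in the second run than in the first. Among rats of the first run alone, 0 of the 6 genes passed for CA1, 1 for CA3 and 0 for the DG, where 3.19%, 4.83% and 0.172% of all genes did. Among those of the second, 5 passed for CA1, 3 for CA3 and 5 for the DG, where 33.8%, 16.5% and 46.9% did. The log2 change of Grin2d in CA1 was -0.26 among the first run's rats and -1.03 among those of the second. For Grin2c in the DG the changes were -0.25 and -0.78. Grin2a in the DG and Grin1 in CA1 were closer, at 0.33 and 0.31 for Grin2a and -0.23 and -0.24 for Grin1. These differences between runs were not tested.

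Within the second run some ages did not overlap. For Grin2a in the DG the 6 young libraries lay between 2453 and 3208 and the 6 middle-aged ones between 3422 and 4039. Those of Grin2c in the DG lay between 1958 and 2895 and between 1148 and 1718. In all, 2 of the 6 genes had ages apart in CA1 (Grin2b and Grin2d, 12.2% of all genes), 1 in CA3 (Grin2c, 6.6%) and 2 in the DG (20.9%). In the first run 0 of the 6 did in any subregion, against 0.395% of genes for CA1, 0.826% for CA3 and 0.289% for the DG.

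**Figure D2:**
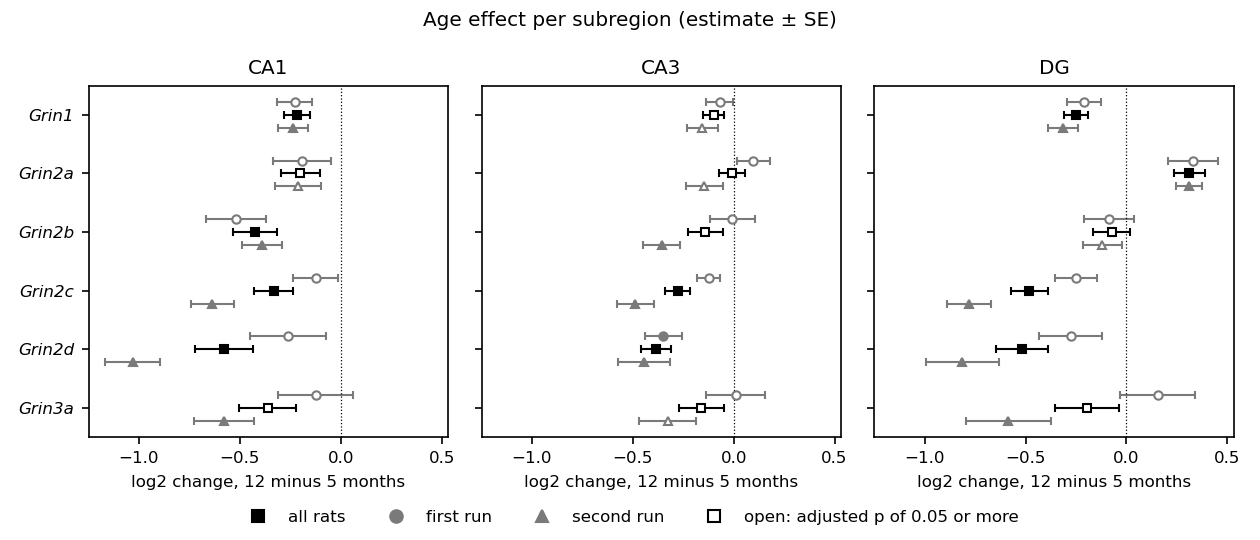
Log2 change from 5 to 12 months with its SE for each gene in CA1, CA3 and the DG, over all rats (squares), the first run (circles) and the second run (triangles). Filled symbols have an adjusted p below 0.05. Grin2a in the DG lies to the right of 0 in all 3 fits, at 0.31 over all rats, and Grin2c and Grin2d lie to the left of 0 in each.

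Some markers of other cell types were called for age, as were many genes in general. The shares of all genes called were 25.2% for CA1, 21.7% for CA3 and 37.1% for the DG. They stand beside every marker count below, and the counts were not tested against them. In bulk tissue fewer cells of a type and less RNA per cell cannot be told apart. Of 10 interneuron markers, 3 were called lower in CA1 (Slc32a1, Reln and Lhx6), 1 in CA3 (Slc32a1) and 1 in the DG (Slc32a1, beside Gad2 and Vip, which were called higher). Their summed level ran from 14780 to 20921 in young and 15063 to 21654 in middle-aged CA1. Of 8 astrocyte markers, 1 was called lower in CA1, 1 higher and 1 lower in CA3, and 1 higher and 1 lower in the DG. In CA1 the astrocyte sum ran from 52718 to 75390 in young and from 52261 to 76853 in middle-aged rats.

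Oligodendrocyte precursors also express NMDA receptor subunits, and of 6 of their markers 4 were called lower for CA1, 2 for CA3 and 4 for the DG. Of all genes, 12.8%, 10.8% and 18.5% were called lower. Cspg4 and Gpr17 were called in all 3 subregions, and Olig1 and Sox10 in CA1 and the DG. Pdgfra and Olig2 were called in none, with log2 changes of Pdgfra of -0.097 for CA1, 0.0029 for CA3 and 0.049 for the DG. The sum of the 6 markers in CA1 ran from 7317 to 10031 in young and from 5939 to 9620 in middle-aged rats. In the DG it ran from 3976 to 6113 and from 3535 to 5777. In CA1, 2 of the 6 CA1 pyramidal markers were called lower, Wfs1 and Fibcd1, with summed levels from 36599 to 65340 in young and from 32852 to 57457 in middle-aged rats. Of 4 granule cell markers tested in CA1, 1 was called higher, Calb1 (log2 change 0.43, limma adjusted p = 0.00505). Their sums ran from 890 to 4284 in young and from 983 to 6887 in middle-aged rats. Of 5 CA3 pyramidal markers tested in CA1, 0 were called, with sums of 2408 to 3203 and 2092 to 6349. In the DG, Fibcd1 was also called lower (log2 change -0.57, limma adjusted p = 0.0354), and the summed CA1 pyramidal markers ran from 3183 to 19038 in young and from 2396 to 13993 in middle-aged rats. Of 5 CA3 pyramidal markers tested in the DG, 3 were called lower (Grik4, Bok and Cdh24) and 1 higher (Nectin3), with sums of 7161 to 8851 and 6063 to 9723. Of 4 tested granule cell markers there, 1 was called lower (C1ql2) and 1 higher (Dsp), with sums of 9845 to 15230 and 8673 to 14031. Of 3 tested endothelial markers, Cldn5 was called lower in the DG. Microglial sums reached 25406 in a middle-aged CA1 library, against at most 5500 in young ones, and 2 of 5 microglial markers were called higher for CA1, 4 for CA3 and 1 for the DG. No marker in these lists that a table held was at 0 in all of its libraries. The part of these markers in the subunit changes was not tested.

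Ratios of subunits within a library do not depend on how that library was scaled. They are ratios of reads, and gene lengths were not used, so a ratio can be compared between libraries but does not give the proportion of subunits. Differences between ages were tested by permutation of the rats (100000 permutations, 2-sided), adjusted over 18 tests, of which 7 passed. Counts of middle-aged libraries are of those on the side of the young median that the mean change gives.

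The Grin2a/Grin2b ratio, which tracks the balance of GluN2A and GluN2B transcripts, was higher at 12 months in the DG. There its lowest, median and highest values were 0.934, 1.37 and 1.49 in young and 1.23, 1.62 and 2.34 in middle-aged rats. The mean log2 ratio was 0.38 ± 0.094 higher (permutation adjusted p = 0.00216), in 14 of 16 libraries. The runs alone gave 0.42 and 0.43 (exact permutation p = 0.00287 and 0.00216). In CA1 the median went from 1.56 to 1.76 (log2 difference 0.23 ± 0.10, permutation adjusted p = 0.0659), and in CA3 from 1.84 to 1.93 (0.13 ± 0.076, adjusted p = 0.168). CA1 passed without any 1 of 4 rats, and its adjusted p ranged from 0.0304 to 0.228 over 32 alternatives.

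Set against the obligatory subunit, Grin2a in the DG rose from a median of 16.6 reads per 100 Grin1 reads in young to 26.1 in middle-aged rats. The ranges were 13.7 to 27.3 and 14.8 to 32.7. Both parts of this ratio moved, as Grin2a itself changed there by 0.31 and Grin1 by -0.25 on the log2 scale. The mean log2 ratio was 0.56 ± 0.11 higher (permutation adjusted p = 0.00072), in 15 of 16 libraries. The runs alone gave 0.54 and 0.62, and the first run's value did not pass (permutation adjusted p = 0.0686, the highest over 32 alternatives, of which the lowest was 0.00072). In CA1 the Grin2a/Grin1 medians were 26.1 and 26.7 per 100, and in CA3 21.9 and 22.8, and neither difference passed (permutation adjusted p = 0.883 and 0.326). The rise in the DG was larger than the change in CA1 by 0.55 ± 0.15 and than that in CA3 by 0.47 ± 0.13 on the log2 scale (permutation of rats, adjusted p = 0.0149 for both, over 18 tests). Young DG libraries thus held the lowest Grin2a/Grin1 median of the 6 groups, and middle-aged DG libraries a median close to that of CA1.

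The Grin2b/Grin1 ratio had a mean log2 difference below 0 in CA1 and above 0 in the DG. In the DG Grin2b itself did not rise (log2 change -0.073), and Grin1, the denominator, fell (-0.25). The mean was 17.3 reads per 100 Grin1 reads in young and 14.9 in middle-aged CA1 (log2 difference -0.21 ± 0.088, permutation adjusted p = 0.0562), and 13.8 and 15.5 in the DG (0.18 ± 0.091, adjusted p = 0.102). Over all rats neither passed alone, but the difference between them did, at 0.39 ± 0.11 (permutation adjusted p = 0.0149). CA1 passed without any 1 of 6 rats, and its permutation adjusted p ranged from 0.014 to 0.253 over 32 alternatives. The DG passed without young replicate 1 (0.0281), the lowest permutation adjusted p of its 32 alternatives, which went up to 0.66. In CA3 the means were 12.1 and 11.9 per 100. Of the 18 differences of this kind 3 passed, and in the first run alone 0 did.

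Grin2d fell relative to Grin1 in all 3 subregions, and Grin2c in CA3 and the DG. Grin2c per 100 Grin1 reads went from a median of 9.99 to 9.43 in CA3 (log2 difference -0.18 ± 0.061, permutation adjusted p = 0.0144) and from 13.3 to 11.2 in the DG (-0.23 ± 0.071, adjusted p = 0.0161). Rats of the first run alone gave -0.053 and -0.038, which did not pass (permutation adjusted p = 0.66 and 0.79), and those of the second -0.33 and -0.46. In CA1 Grin2c/Grin1 did not pass (log2 difference -0.12 ± 0.088, permutation adjusted p = 0.288). There the runs alone gave 0.105 and -0.40, and over 32 alternatives the permutation adjusted p ranged from 0.00779 in the second run to 0.66 in the first. Grin2d went from a mean of 1.59 to 1.23 per 100 in CA1 (log2 difference -0.36 ± 0.12, permutation adjusted p = 0.0161) and from 1.27 to 1.03 in CA3 (-0.29 ± 0.080, adjusted p = 0.00438). For the DG the log2 difference was -0.27 ± 0.11 (permutation adjusted p = 0.0386). This call was lost without any 1 of 10 rats, with an adjusted p of up to 0.0784. The runs alone gave -0.064, which did not pass (permutation adjusted p = 0.79), and -0.50. In CA3 the fall of Grin2d/Grin1 was alike in size in both runs, at -0.28 and -0.29, but did not pass in the second (permutation adjusted p = 0.124). In CA1 it was -0.033 and -0.79, and it did not pass in the first (permutation adjusted p = 0.825). Grin3a/Grin1 did not pass in any subregion, with log2 differences of -0.15 ± 0.17 for CA1, -0.064 ± 0.15 for CA3 and 0.055 ± 0.19 for the DG.

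**Figure D3:**
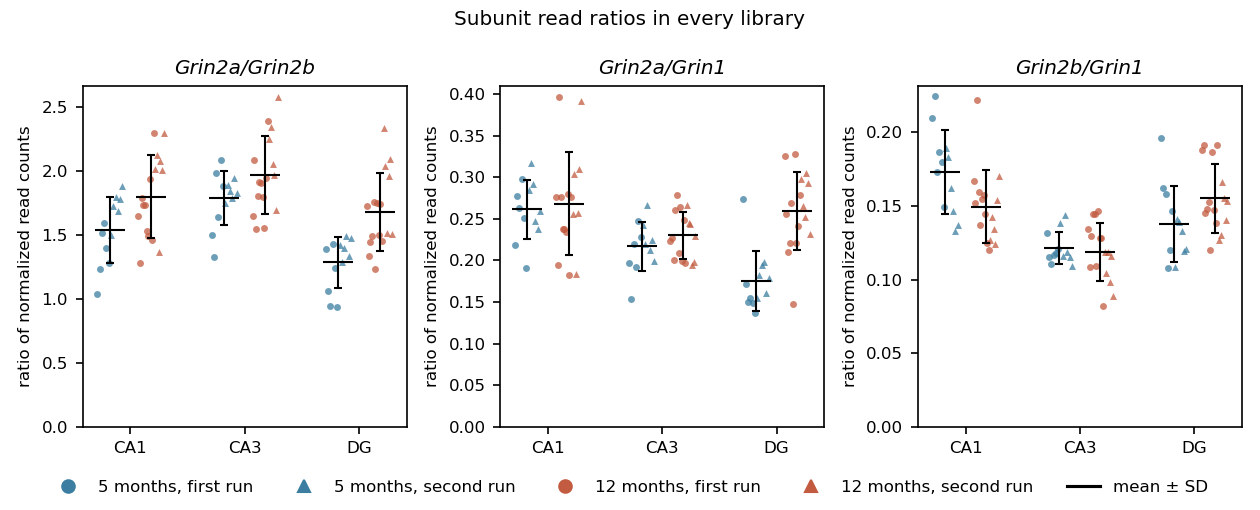
Ratios of normalized read counts in every library, drawn as in the plot of levels. Grin2a/Grin2b and Grin2a/Grin1 lie higher in middle-aged than in young DG libraries, with medians of 1.62 against 1.37 for Grin2a/Grin2b, and Grin2b/Grin1 lies lowest in CA3.

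Of all reads on the 4 Grin2 genes, Grin2a took 37.8 ± 3.1% in young and 47.8 ± 5.2% in middle-aged DG (mean ± SD, n = 12 and 16). Grin2c took 29.6 ± 3.8% and 21.7 ± 3.9%, and Grin2b 29.9 ± 3.9% and 28.7 ± 2.4%. In CA1 the share of Grin2a was 42.4 ± 3.8% and 45.7 ± 6.1%, and in CA3 47.3 ± 2.8% and 50.9 ± 3.2%. Grin2d had between 1.85% and 2.79% in the 6 groups on average. These shares were not tested.

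Across subregions the subunit mix differed most in Grin3a and Grin2c. The tables were normalized separately for each subregion, so levels are given as CPM, recovered reads scaled to the same total in every library, and described without a test. Grin3a averaged 12.3 ± 3.5 CPM for CA1, 7.73 ± 1.8 for CA3 and 4.47 ± 1.5 for the DG (mean ± SD, n = 28). It was lower in the DG than in CA1 in all 28 rats, as were 5.37% of genes, lower in the DG than in CA3 in 26, and lower in CA3 than in CA1 in 25. Grin2c averaged 122 ± 24 in CA1, 107 ± 25 in the DG and 79.3 ± 12 in CA3, and was higher in CA1 than in CA3 in all 28 rats, as were 3.78% of genes. These were the only 2 of 18 comparisons of a gene between subregions with the same order in every rat.

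Grin2b was lowest in CA3, at 96.5 ± 15 CPM, below CA1 (124 ± 32) in 26 of 28 rats and below the DG (125 ± 21) likewise in 26, though not in the same 26. CA1 and the DG split evenly, with 14 rats each way. In young rats the CA1 mean was the higher (145 ± 33 against 126 ± 22), and in middle-aged rats the DG mean (125 ± 22 against 109 ± 20). Grin1 averaged 854 ± 93 in the DG, 805 ± 68 in CA3 and 772 ± 94 in CA1, and the DG exceeded CA1 in 22 rats. For Grin2a the means were 203 ± 38 in CA1, 186 ± 37 in the DG and 180 ± 23 in CA3, and for Grin2d 10.9 ± 3.6, 9.32 ± 2.9 and 9.10 ± 1.7. The order for Grin2a depended on age. Its means in CA1, CA3 and the DG were 217 ± 35, 179 ± 20 and 161 ± 33 in young rats. In middle-aged rats they were 193 ± 37, 180 ± 25 and 206 ± 27, so the DG went from lowest to highest. Over both ages, the ranges of single libraries overlapped in all 18 comparisons, and for Grin1, Grin2a and Grin2d neighbouring means lay within 1 SD of each other.

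**Figure D4:**
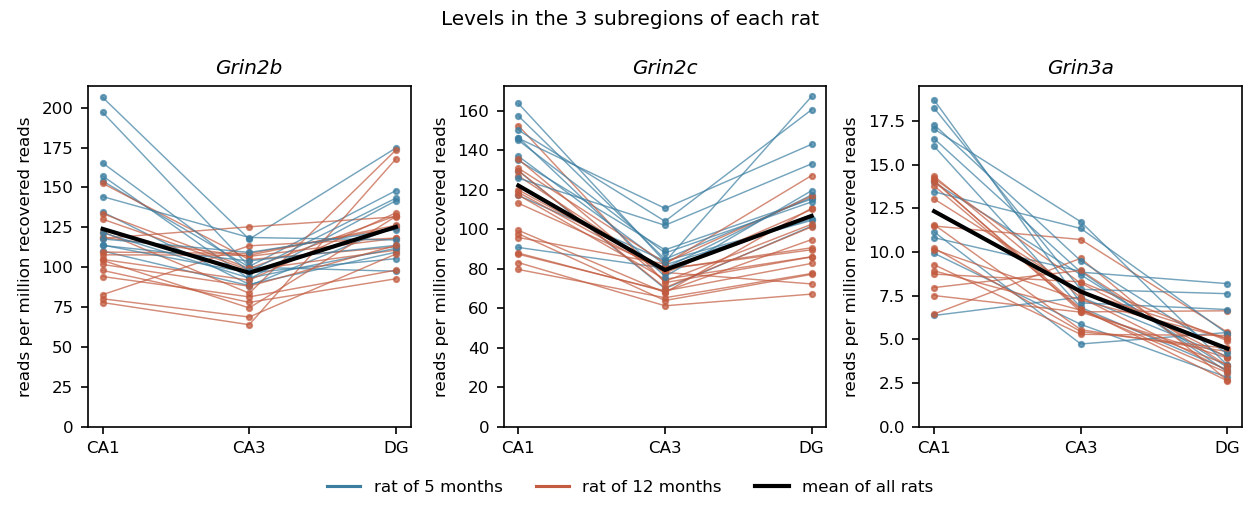
CPM of Grin2b, Grin2c and Grin3a in CA1, CA3 and the DG, with 1 thin line per rat and the mean of all 28 in black. Grin2b and Grin2c dip in CA3, and Grin3a declines from 12.3 in CA1 to 4.47 in the DG.

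Within-library ratios can be set across the tables, and 15 of 18 tests between subregions passed (sign flips within rats, 100000 permutations, 2-sided). These tests took both ages together, and the ages were not tested apart. In the first run alone 12 of the 18 passed, and in the second 11. Grin2a/Grin1 between the DG and CA1 passed in neither run, and between CA1 and CA3 not in the first. Grin2d/Grin1 between CA1 and CA3 did not pass in the second. Grin3a per 100 Grin1 reads had medians of 1.67 for CA1, 0.932 for CA3 and 0.472 for the DG. On the log2 scale the DG differed from CA1 by -1.60 ± 0.11 (in 28 of 28 rats) and from CA3 by -0.90 ± 0.11 (in 27 of 28), each with a permutation adjusted p of 2.25e-05. That is the smallest these permutations can give here, from an unadjusted p of 1e-05. CA1 lay 0.71 ± 0.11 above CA3, in 25 of 28 rats, with the same adjusted p.

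Grin2c/Grin1 was ordered CA1, DG, CA3, with medians of 15.8, 12.4 and 9.56 per 100 Grin1 reads. CA1 exceeded CA3 by 0.67 ± 0.043 on the log2 scale in 28 of 28 rats, and the DG exceeded CA3 by 0.33 ± 0.037 in 27 (permutation adjusted p = 2.25e-05 for both). Grin2b/Grin1 was lowest in CA3, at 11.8 per 100 against 15.4 in CA1 and 14.6 in the DG. CA1 exceeded CA3 by 0.40 ± 0.052 (permutation adjusted p = 2.25e-05, 26 of 28 rats), and the DG and CA1 did not differ beyond the threshold (-0.11 ± 0.066, adjusted p = 0.118). Grin2d/Grin1 was higher in CA1 than in the DG (DG minus CA1 -0.35 ± 0.065, permutation adjusted p = 5.4e-05) and CA3 (CA1 minus CA3 0.27 ± 0.076, adjusted p = 0.00234).

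The Grin2a/Grin2b ratio was highest in CA3 (median 1.89), followed by CA1 (1.71) and the DG (1.47). It exceeded 1 in every CA1 and CA3 library and in 26 of 28 DG libraries, and both exceptions were young. The DG lay below CA3 by a log2 difference of -0.34 ± 0.063 (permutation adjusted p = 2.25e-05, 25 of 28 rats) and below CA1 by -0.17 ± 0.054 (adjusted p = 0.00666, 19 of 28). CA1 lay below CA3 by -0.18 ± 0.049 (permutation adjusted p = 0.00187, 23 of 28 rats). The gap between the DG and CA1 did not pass in either run alone (-0.15 and -0.18, permutation adjusted p = 0.0954 and 0.0507), nor did that between CA1 and CA3 in the second run (-0.11, 0.0973). Over 33 alternatives the permutation adjusted p went from 0.0018 to 0.0954 for the first gap and from 0.000164 to 0.0973 for the other.

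Other genes of the receptor's pathway were read from 4 lists. Beside their counts stand the shares of all genes called, 25.2% for CA1, 21.7% for CA3 and 37.1% for the DG. The shares called lower were 12.8%, 10.8% and 18.5%, and the counts were not tested against any of these. Of 9 tested genes that handle the co-agonists glycine and D-serine or break down D-amino acids, 3 were called lower for CA1, 0 for CA3 and 5 for the DG, with 0 called higher. The glycine transporter gene Slc6a9 fell by 0.32 ± 0.080 on the log2 scale in CA1 (limma adjusted p = 0.00572) and by 0.27 ± 0.082 in the DG (0.0117). Slc1a4, a neutral amino acid transporter that carries serine, fell by 0.20 ± 0.058 in CA1 (limma adjusted p = 0.0145) and by 0.39 ± 0.072 in the DG (0.000365). Gldc, of the glycine cleavage system, fell in CA1 (log2 change -0.21, limma adjusted p = 0.0112). Slc7a10, which exchanges D-serine and glycine, and Phgdh, the first enzyme of serine synthesis, fell in the DG (log2 changes of -0.33 and -0.27, limma adjusted p = 0.00389 and 0.00403). The fifth gene lower in the DG was Ddo, whose enzyme breaks down D-aspartate and not the co-agonists (-0.20, limma adjusted p = 0.0228). The list's median log2 change was -0.12 for CA1, -0.056 for CA3 and -0.20 for the DG, beside 0.0038, 0.0022 and 0.010 over all genes.

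Of 15 tested genes that anchor or traffic the receptor, 3 were called lower in CA1, 4 lower in CA3, and 5 higher and 2 lower in the DG. Of all genes, 25.2%, 21.7% and 37.1% were called in these subregions. Ephb2, a receptor kinase that binds NMDA receptors, fell in all 3 subregions, with log2 changes of -0.34 for CA1, -0.29 for CA3 and -0.26 for the DG (limma adjusted p = 0.00577, 0.0071 and 0.00777). Dlg4, the scaffold PSD-95, fell in CA1 and CA3 (-0.29 and -0.14, limma adjusted p = 0.0327 and 0.0387). In CA1 the adaptor Apba1 fell (-0.22, limma adjusted p = 0.00603), and in CA3 the scaffold Dlg3 (-0.13, 0.02) and the motor Kif17 (-0.20, 0.0282). In the DG the anchoring genes Akap9 and Akap5 and the adaptor Lin7c rose, by 0.39, 0.41 and 0.53 on the log2 scale (limma adjusted p = 0.000276, 0.000718 and 0.000567), while Nsmf, a synapse-to-nucleus messenger, fell by 0.35 (0.000627). Median changes of this list were -0.11, -0.084 and 0.042 in CA1, CA3 and the DG.

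Of 16 kinase and phosphatase genes that act on the receptor, 1 was called higher in CA1, 5 lower in CA3, and 1 higher and 7 lower in the DG. Over all genes the called share was 25.2%, 21.7% and 37.1%. Ppp3r1, the regulatory subunit of calcineurin, rose in CA1 (log2 change 0.28, limma adjusted p = 0.00517). The calmodulin kinase genes Camk2a and Camk2b fell in CA3 (-0.29 and -0.25, limma adjusted p = 0.00145 and 0.00482), as did Fyn, a Src-family kinase of GluN2 subunits, and Csnk2a1, of casein kinase 2 (-0.14 and -0.15, 0.00158 and 0.008). In the DG Camk2b fell by 0.34, Src by 0.27, Csnk2b by 0.26 and Csk by 0.25 (limma adjusted p = 0.00216, 0.00178, 0.00236 and 0.00599). Median changes were -0.11, -0.047 and -0.10 in CA1, CA3 and the DG.

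Of 9 tested genes downstream of the channel, 1 was called higher and 3 lower in CA1, 3 lower in CA3, and 2 of each in the DG. Among all genes 25.2%, 21.7% and 37.1% were called. Crtc1, a co-activator of CREB, fell in all 3 subregions, with log2 changes of -0.32, -0.29 and -0.24 in CA1, CA3 and the DG (limma adjusted p from 0.00218 to 0.0212). Nos1, the neuronal nitric oxide synthase, fell in CA1 (-0.35, limma adjusted p = 0.0247). Calm2, a calmodulin gene, fell in CA3 (-0.22, limma adjusted p = 0.0124). Kalrn, a Rac activator of spines, rose in the DG (0.16, limma adjusted p = 0.0207). Median changes were -0.11, -0.19 and -0.032.

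Among themselves the subunit genes varied unequally from library to library. Likeness was taken as the mean over the 3 subregions of Pearson's r across 28 libraries of log2 counts centred within each age, a description over libraries that each share 1 scaling factor for all genes. Counts were not centred within runs, so differences between runs stay in r. Grin2c and Grin2d were the most alike pair (r = 0.73). Grin2c stood at rank 12 of 12101 genes in likeness to Grin2d, and Grin2d at rank 88 in likeness to Grin2c. Grin1 had 0.58 with Grin2d (0.32 in CA3), 0.57 with Grin2c and 0.57 with Grin2b. These stood only at ranks 778, 849 and 856 in likeness to Grin1. With Grin2a it had 0.13 and with Grin3a -0.22. Grin2a and Grin2b had 0.55, and Grin2a and Grin3a 0.39.

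Of all genes, those most like Grin1 were Sez6l2 (mean r = 0.88), Chst1 (0.87) and Clstn1 (0.86). Those most like Grin2a included Lrrc7 (0.82), which encodes the postsynaptic protein densin-180, and Gramd1b (0.80). For Grin2b they were Mprip (0.80), the calcium channel gene Cacna1e (0.79) and the spine protein gene Sipa1l1 (0.79). Grin2c and Grin2d shared Caskin1, a CASK-binding scaffold, as the closest gene (0.85 and 0.78), with Agap2 (0.82) also near Grin2c, and Celsr2 (0.78) and Cbarp (0.77) near Grin2d. Grin3a had the least close neighbours, the potassium channel subunit gene Kcnf1 (0.67), the phosphatase gene Ptprt (0.65) and the serotonin receptor gene Htr2c (0.62).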

How the data were processed

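The authors deposited 1 table of normalized counts per subregion, used here as a signal. Tools named in the submitters' processing notes are Partek, STAR 2.5.3a and DESeq2 3.5, with build rn6 and no order or settings, and per the labels polyA RNA went into an Ion Total RNA-seq kit. The annotation and strand setting is not given in the sources used here. In each library, values up to 1000 reads were whole multiples of 1 step within 0.1 read (100% of values), so they are counts over 1 size factor. Multiplying by it recovered whole reads, from 14.4 to 23.4 M (median 18.0) per library. In CA3, 1 column is headed by an animal number alone and was taken as that animal's CA3 library.

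Genes that reached a value of 10 in 12 or more of 28 libraries were tested with limma 3.58.1 (R 4.3.3, trend, 2-sided) on log2 of the value plus 1, which understates changes of low genes, with Benjamini-Hochberg adjustment and a threshold of 0.05. The average took 1 mean log2 value per rat over its 3 libraries. Differences between subregions were taken within rats, paired by the animal number in the titles. Deviations of a rat's libraries correlated weakly (mean r from 0.0301 to 0.062 over the 3 pairs). Ratio tests permuted rats, by enumeration within a run. The alternatives were another pseudocount (0.5 or 5), filter (none or 50), TMM factors, recovered reads in edgeR 4.0.16 or DESeq2 1.42.0, a run term, each run alone, no pairing and each rat left out. For ratios, leaving out rats (20000 permutations) was chosen after the data were seen. The limma fit of age within a subregion was tried on simulated data without runs.

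The members, lists and tests were chosen with earlier results of these data known. Named are the 6 members, up to 4 called genes per list and subregion with the smallest p, and the 3 genes most like each member among those with a mean of at least 50 in every subregion. A few genes named by it are not reported here and remain in all tests and counts. Markers of interneurons, oligodendrocyte precursors, pyramidal, granule and endothelial cells, and Ddo and Ephb2 in the DG, were named after their values were seen.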

Additional observations from a re-analysis of the deposited data

Results flagged for a closer look

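Age effects on 3 subunit ratios differed between subregions by a permutation test of the difference itself (adjusted over 18 tests, adjusted p = 0.0149 for each). For Grin2a/Grin1 the log2 change from 5 to 12 months was larger in the DG than in CA1 by 0.545, in 13 of 16 middle-aged rats against the young median. The same ratio changed more in the DG than in CA3 by 0.473, in 15 of 16 rats. For Grin2b/Grin1 the change in the DG exceeded that in CA1 by 0.387, in 14 of 16 rats. Grin1, the denominator of these ratios, was itself called lower in CA1 and the DG. In the first run alone the differences were 0.50, 0.37 and 0.42 and in the second 0.60, 0.61 and 0.35. In the first run 0 of the 3 passed (permutation adjusted p = 0.351, 0.351 and 0.323). In the second, the differences between the DG and CA1 did not pass, for Grin2a/Grin1 (permutation adjusted p = 0.0877) or Grin2b/Grin1 (0.0584). Leaving out any 1 rat kept all 3 past the threshold, with adjusted p up to 0.0297.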

How the results depend on the processing

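The first run of animal numbers alone called far fewer genes, 468 in CA1 (3700 over all rats), 719 in CA3 (3231), 25 in the DG (5382) and 2628 for the average (7149). It also called 2 ratios by age (7) and 0 differences of the age effect on a ratio (3), of which the second run alone called 1. The cause was not tested, and each run holds fewer rats. For DG against CA1 (87 genes) the count was 264 with a run term, 1 and 19 in the first and second run, and 8 with no replicate block. For DG against CA3 (393) it was 1 and 757 in the runs and 171 with no replicate block. For CA1 against CA3 (0 by limma) it was 2 with a pseudocount of 5, 31 with a run term, 57 in the first run and 4 with no replicate block. Pairing by rat changed no call of the 6 subunit genes or of their ratios between subregions. Averaged Grin3a changed sign in the first run (0.01352). With each rat left out, counts ranged from 2860 to 4266 in CA1, 2649 to 3417 in CA3, 4703 to 6158 in the DG and 6647 to 7529 for the average, and the ratio tests passed 6 to 9 by age, 15 to 16 between subregions and 3 to 3 for differences. Other pseudocounts, filters and TMM factors changed no call of a subunit gene within a subregion. Grin2d and Grin3a had the fewest reads, down to 100 and 43 per library, which limits their precision.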
